A study of Rattus norvegicus with 21 samples.

Results

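Axon initial segments and nodes of Ranvier are built from a small set of scaffold, spectrin and adhesion proteins, and the genes for 9 of them were followed here across 21 single rat hippocampal neurons. The genes were chosen by name from a list of 10: Ank3, Ank2, Sptbn4, Sptbn1, Sptan1, Nfasc, Nrcam, Cntn1, Cntn2 and Cntnap4. Ank2 was not found by its symbol and is not analysed here, which leaves 9 genes of the 16245 gene symbols measured. The cells were hippocampal neurons of Wistar rats carrying a transgene that expresses the Venus fluorescent protein under the vesicular GABA transporter, VGAT. All were taken from embryos at embryonic day 18 and grown for 17 days in vitro. Each neuron was patched and recorded, its contents were aspirated, and its polyadenylated RNA was amplified to full-length cDNA and sequenced.

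The neurons fall into 4 groups. There were 5 pyramidal neurons and 6 GABAergic neurons in cultures that kept their glia. Another group held 5 GABAergic neurons from cultures that had been purified with the antimitotic agents FdU and U at 5 µM, added 24 h after dissection and removed after 36 h. The last 5 GABAergic neurons came from cultures purified in the same way and given oligodendrocyte conditioned medium, OCM, from day 3 in vitro. That medium came from oligodendrocyte cultures made from Wistar cortices at postnatal day 2, so it is a mixture and no single factor. The question put by the series is how secreted oligodendrocyte factors act on GABAergic neurons. No label ties a neuron to an animal or a culture. Each group is therefore counted as 1 sample, no test across cells was made, and every SD or range describes the spread between cells.

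The axon initial segment is the stretch of axon next to the cell body where action potentials start. Ankyrin-G, encoded by Ank3, is its organising scaffold: it binds voltage-gated sodium channels and adhesion proteins and ties them to a submembrane lattice of spectrin and actin. Nodes of Ranvier use many of the same proteins, and GABAergic hippocampal neurons can form node-like clusters of them before myelin arrives, which is what oligodendrocyte secreted factors are known to promote. Protein at an initial segment can be long-lived, so a transcript level in 1 cell is not a measure of the structure.

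Levels are given as normalized counts, the values the authors name as DESeq2-normalized, which are whole reads divided by 1 factor for each cell. Depth ran from 1817671 to 25160911 reads per cell, and between 2540 and 8652 rows of the table were above 0 in a cell. Levels are compared between cells and groups for 1 gene at a time and not between genes, since lengths of the transcripts were not used here. The gene-level values also do not separate isoforms, such as the giant forms of ankyrin-G or the neuronal and glial forms of neurofascin. Reads carry no molecular identifiers, and an interval or floor given below covers counting error alone.

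Markers of cell identity were read before the genes of interest. Gad1 and Slc32a1, which make and load GABA, were at 0 in every pyramidal cell, and Slc17a7, the vesicular glutamate transporter, was at 0 in all 16 GABAergic cells. Pyramidal cell 3 stood apart from its label: Slc17a7 was at 0 there, against 7887 to 18423 in the other pyramidal cells, and its summed level of 4 glutamatergic markers was 46.9. Of the 8 oligodendrocyte markers, 8 were above 0 in some pyramidal cell, 4 in some GABAergic cell with glia, and 1 each in the purified and the OCM-treated cells. Their summed level ran from 0 to 317931 in pyramidal cells, 0 to 1163 in GABAergic cells with glia, 0 to 857 in purified cells and 0 to 3.05 in OCM-treated cells. The high values were in pyramidal cells 3 and 4, where Mbp, a myelin gene, stood at 278859 and 95386. The microglial sum reached 13221 in pyramidal cell 3. Mog, Mag, Mobp and Sox10 were at 0 in every GABAergic cell. The summed level of 7 astrocyte markers had a median of 1178 (0 to 1414) in GABAergic cells with glia, 22.2 (0 to 1538) in purified and 335 (0 to 1226) in OCM-treated cells. In pyramidal cells the median was 1097 (0 to 7209), with the highest sum in cell 3. Neuronal markers moved with the groups too. Gad1 ran from 6011 to 19503 in GABAergic cells with glia, from 0 (cell 4) to 2930 in purified cells and from 2422 to 15540 in OCM-treated cells. Snap25, a synaptic vesicle fusion gene, ran from 26926 to 44072, from 6340 to 14639 and from 14532 to 24993 in that order. Purified cells thus lay below every glia-cultured cell in both markers; the part of this in the results below was not tested. Results on pyramidal cells are therefore given with and without cells 3 and 4.

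Across all 4 groups, the 9 genes ranged from those found in nearly every cell to those found in few. Transcript lengths were not used, so these counts do not rank the levels of the genes. Nrcam was above 0 in 20 of 21 cells, Cntn1 in 19, Sptan1 in 18 and Sptbn1 in 17. Cntnap4 was above 0 in 11 cells, Nfasc in 10, Ank3 in 7, Cntn2 in 6 and Sptbn4 in 5. For scale, 4.23% of the 11180 symbols above 0 in any cell were found in as many cells as Nrcam, and 44.4% in as many as Ank3. The ankyrin-G scaffold and its partner spectrin were thus read in few cells, and the general spectrins and the widely used adhesion genes in most. The plot of all 9 genes cell by cell shows this range.

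**Figure D1:**
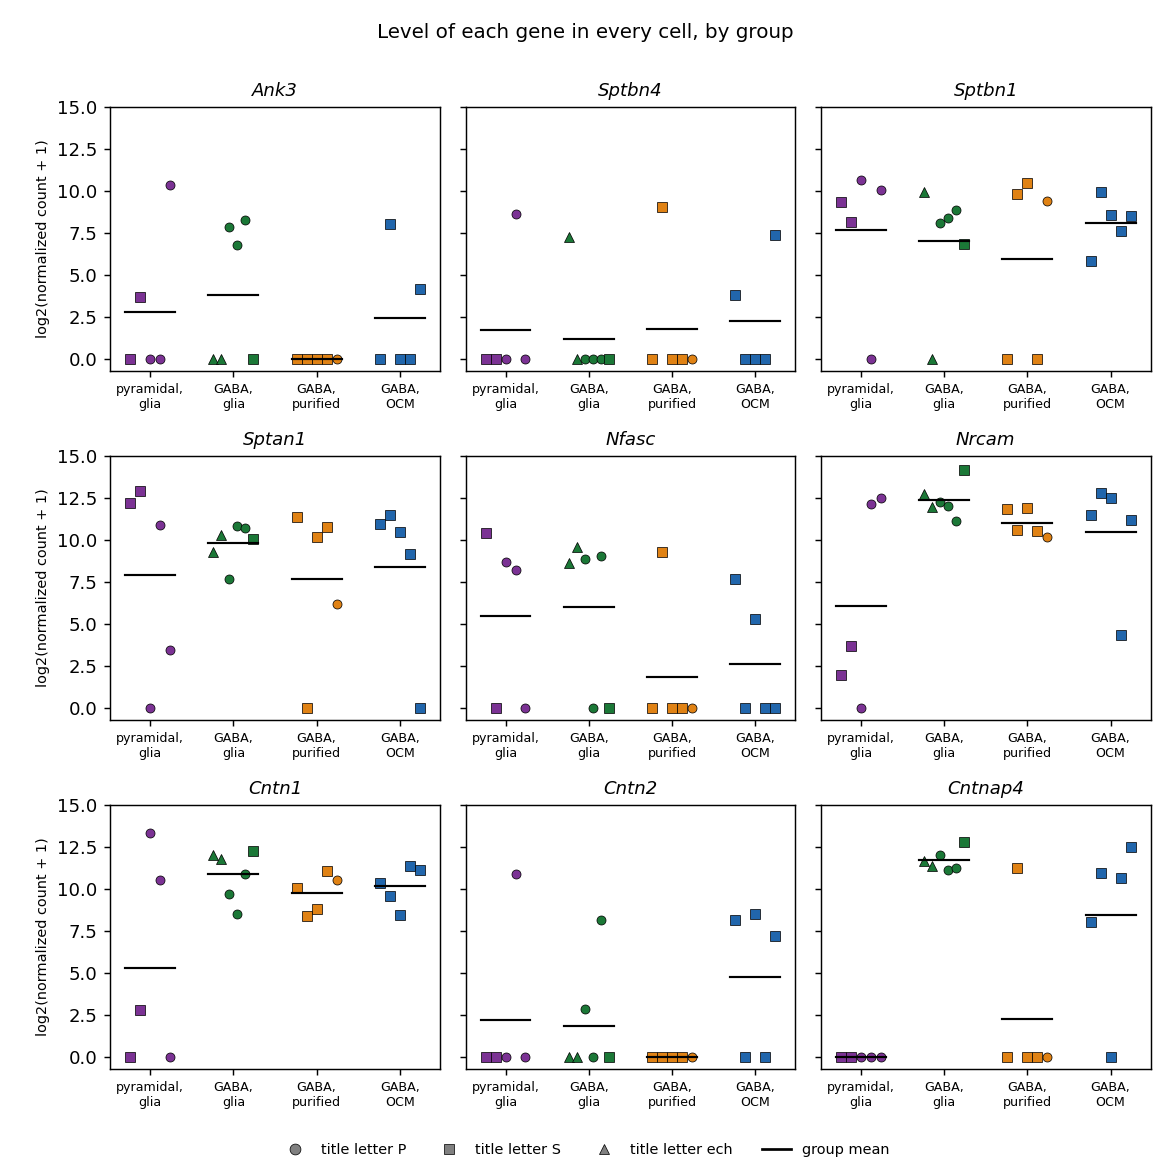
Normalized count of each of the 9 genes in every cell, as log2 of the value plus 1, in the 4 groups; each point is 1 cell, its shape gives the opening letters of the sample title and the black line is the group mean. Points at 0 are cells with no reads: Ank3 and Cntn2 are at 0 in all 5 purified cells and Cntnap4 in all 5 pyramidal cells.

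Ank3 (chr20:19948767-20480628 in rn6) encodes ankyrin-G, the scaffold without which an initial segment does not assemble. In GABAergic cells with glia its normalized counts were 0, 0, 236, 109, 307 and 0. All 5 purified cells were at 0. OCM-treated cells had 0, 256, 0, 0 and 17.1. The 3 glia-cultured cells with reads and the 2 OCM-treated ones overlapped in level, while no purified cell had a read. Pyramidal cells had 0, 11.8, 0, 0 and 1315, the highest level of the series in cell 5, and the value in cell 2 came from 2 reads. Summed over a group and divided by its depth, Ank3 had 12.9 reads per 1000000 (95% exact Poisson interval 12.1 to 13.6) in GABAergic cells with glia and 10.2 (9.29 to 11.1) in OCM-treated cells. The purified group had 0 reads of 25901627, which with a floor of 3 reads over the group allows up to 0.116 per 1000000. Ank3 was thus at least 111-fold lower in purified than in glia-cultured GABAergic cells by summed reads, and at least 87.7-fold lower than in OCM-treated cells. The second limit rests on OCM-treated cell 2, which held 504 of the 515 reads, and is 2.52-fold without it; the first is 64.9-fold without glia-cultured cell 5. Since 3 glia-cultured and 3 OCM-treated cells also had no reads, the single cells of these groups overlapped. The 3 glia-cultured cells with reads are those whose sample titles open with P. In the purified group 1 of 5 titles opens with P and 4 open with S.

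Sptbn4 (chr1:84168493-84254645) encodes beta-IV spectrin, the isoform that anchors ankyrin-G to actin at initial segments and nodes. It was the least often detected of the 9 genes. Pyramidal cell 4 had 396, glia-cultured GABAergic cell 1 had 151, purified cell 2 had 530, and OCM-treated cells 1 and 5 had 12.8 and 166. Every other cell was at 0, so each group held 1 or 2 positive cells and the groups overlapped.

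Sptbn1 (chr14:114517841-114692764), which encodes beta-II spectrin of the periodic lattice along the whole axon, was found far more widely. OCM-treated cells had 55.8, 984, 387, 198 and 366, and were the only group with reads in every cell. Purified cells had 0, 895, 1450, 0 and 681. GABAergic cells with glia had 992, 0, 270, 340, 470 and 116, and pyramidal cells had 662, 283, 1638, 0 and 1083. Cells with no reads stood in all groups but the OCM-treated one, and above 0 the ranges overlapped.

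Sptan1 (chr3:8534440-8599260) encodes alpha-II spectrin, the alpha partner of the neuronal beta spectrins. All 6 GABAergic cells with glia had reads, at 631, 1243, 200, 1853, 1714 and 1085. Purified cells had 2659, 0, 1143, 1734 and 73.7, and OCM-treated cells had 1980, 2933, 1405, 568 and 0. The means of these 3 groups were 1121 (SD 631), 1122 (SD 1129) and 1377 (SD 1155), closer to each other than the cells within any of them. Pyramidal cells spread widest, at 4803, 7661, 0, 1919 and 10.1, with the cell at 0 being cell 3.

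Nfasc (chr13:49335408-49522415) encodes neurofascin, which binds ankyrin-G through its neuronal form and clusters sodium channels, and which glia make in another form. GABAergic cells with glia had 392, 768, 461, 0, 520 and 0. In purified cells only cell 2 had reads, at 635. OCM-treated cells had 203, 0, 39.1, 0 and 0, so the 2 cells with reads lay below the lowest glia-cultured cell with reads. Pyramidal cells had 1343, 0, 419, 299 and 0. Reads were in 4 of 6 glia-cultured, 1 of 5 purified and 2 of 5 OCM-treated GABAergic cells, and because each group also held cells at 0, none stood apart.

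Cntn2 (chr13:49285310-49313945) encodes contactin-2, also called TAG-1, an adhesion protein of axons and myelinating glia that gathers potassium channels beside the node. Its counts in OCM-treated cells were 288, 0, 365, 0 and 146. All 5 purified cells were at 0. Among GABAergic cells with glia, cell 5 had 284, cell 3 had 6.22 and the other 4 had none. Reads were thus in 3 of 5 OCM-treated, 2 of 6 glia-cultured and 0 of 5 purified cells. By summed reads, Cntn2 was at least 202-fold lower in purified than in OCM-treated cells and at least 53.1-fold lower than in glia-cultured cells. Glia-cultured cell 5 held 532 of the 542 reads behind the second limit, which is 1.17-fold without it, and the first is 127-fold without OCM-treated cell 3. The only pyramidal cell with reads was cell 4, at 1896, which is 1 of the 2 pyramidal cells with myelin transcripts; the part of these in the Cntn2 value was not tested.

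Cntn2 and Nfasc lie next to each other on chromosome 13 in rn6, with a gap of 21.5 kb and 0 other rows of the table between them. Of the 6 cells with Cntn2 reads, 5 also had Nfasc reads, out of 10 cells with Nfasc. The 250 bases before the start of each gene are shown because the pair sits side by side, with Sptan1 beside them as a widely detected spectrin. They come from RefSeq in GRCr8 and run 5′ to 3′ on the strand of the gene, with CG dinucleotides in capitals. Cntn2 is at chr13:46528026-46528275 on the minus strand, Nfasc (the first of 2 starts) at chr13:46701165-46701414 on the minus strand, and Sptan1 at chr3:33638819-33639068 on the plus strand.
Cntn2: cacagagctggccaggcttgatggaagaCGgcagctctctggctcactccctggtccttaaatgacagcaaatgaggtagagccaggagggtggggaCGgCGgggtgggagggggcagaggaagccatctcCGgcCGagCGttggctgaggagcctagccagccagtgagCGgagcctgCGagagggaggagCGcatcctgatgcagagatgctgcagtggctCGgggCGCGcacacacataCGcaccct
Nfasc: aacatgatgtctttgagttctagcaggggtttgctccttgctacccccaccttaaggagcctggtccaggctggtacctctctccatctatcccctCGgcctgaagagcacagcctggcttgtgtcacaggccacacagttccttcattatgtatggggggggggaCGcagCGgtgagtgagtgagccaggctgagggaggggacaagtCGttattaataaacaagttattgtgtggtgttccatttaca
Sptan1: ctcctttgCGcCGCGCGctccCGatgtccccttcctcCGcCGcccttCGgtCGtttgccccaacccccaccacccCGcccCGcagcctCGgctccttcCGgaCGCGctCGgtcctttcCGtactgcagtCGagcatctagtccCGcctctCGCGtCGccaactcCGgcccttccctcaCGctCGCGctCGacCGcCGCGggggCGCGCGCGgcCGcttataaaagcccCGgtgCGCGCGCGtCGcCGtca

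The windows differ mainly in their CG dinucleotides. Cntn2 holds 13, Nfasc 4 in the window shown and 2 before its other start, and Sptan1 42, a number that 0.816% of all 33469 rat windows of this length reach. The median window holds 5. The beta spectrins were also rich, with 35 in Sptbn4 and 27 in Sptbn1, while Ank3 held 6 and Cntn1 3. A GC box (GGGCGG, either strand) was found in the 3 spectrin windows, 2 in Sptan1, 2 in Sptbn4 and 4 in Sptbn1, and in 30.5% of all windows; the other windows of these genes held none. The letters TATAAA (either strand) were found once, in Sptan1, and in 12.9% of all windows. Of the 9 genes, 7 had a window. Sptbn4 had the fewest cells with reads and Sptan1 many, so the CG count of a window did not order the genes by how often they were found.

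Nrcam (chr6:64297888-64865002) encodes NrCAM, an adhesion protein that joins neurofascin at initial segments and nodes. Every GABAergic cell had reads. Those with glia had 6723, 3937, 4871, 4182, 2270 and 18505. Purified cells had 3649, 1530, 3866, 1462 and 1139. OCM-treated cells had 2930, 6999, 5838, 19.7 and 2336. The glia-cultured cells were the highest on average at 6748 (SD 5938), above 2329 (SD 1314) in purified and 3624 (SD 2803) in OCM-treated cells, and the groups overlapped. Purified cells 1 and 3 lay above glia-cultured cell 5, the only glia-cultured cell below any purified one. Pyramidal cells split: cells 4 and 5 had 4555 and 5834, whereas cells 1 and 2 had 2.96 and 11.8, from 2 reads each, and cell 3 had none.

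Cntn1 (chr7:133400480-133585959) encodes contactin-1, which with Caspr forms the axonal side of the paranodal junction. All 16 GABAergic cells had reads. Cells with glia had 4245, 3581, 823, 359, 1919 and 5010, purified cells 1070, 339, 444, 2167 and 1506, and OCM-treated cells 1292, 785, 353, 2656 and 2281. The lowest cells of the 3 groups, at 359, 339 and 353, were alike. Among the GABAergic cells, the 3 highest values were all in cells with glia, and the highest OCM-treated cell was at 2656.

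In pyramidal cells Cntn1 was at 10321 in cell 3 and 1467 in cell 4, at 5.90 in cell 2 from 1 read, and at 0 in cells 1 and 5. The reads thus sat in the cells with myelin transcripts; the part of these was not tested. Without cells 3 and 4, every pyramidal cell lay below every GABAergic cell with glia.

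Cntnap4 (chr19:44817727-45118133) encodes Caspr4, a neurexin-like relative of the paranodal Caspr that is known from GABAergic interneurons. All 6 GABAergic cells with glia had reads, at 3309, 2679, 4115, 2279, 2405 and 7018. In purified cells only cell 2 had reads, at 2459, a level within the glia-cultured range, and the other 4 had none. OCM-treated cells had 264, 2017, 0, 1595 and 5707. Cntnap4 was therefore near uniform in glia-cultured cells (mean 3634, SD 1791), at 0 in 4 of 5 purified cells, and present at a wide range in 4 of 5 OCM-treated cells (mean 1917, SD 2285). Purified and OCM-treated cells overlapped, as did OCM-treated and glia-cultured ones. All 5 pyramidal cells had 0 reads, at least 6749-fold lower than GABAergic cells with glia by summed reads (409 reads per 1000000, 95% exact Poisson interval 405 to 414, against a floor of 0.0607).

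The comparison of pyramidal with GABAergic neurons, both with glia, asks how the 2 cell classes differ under the same culture. Cntnap4 was the clearest difference, with no overlap between the cells, followed by Nrcam and Cntn1, whose levels were low in 3 of the 5 pyramidal cells. For each gene the difference is that of the group means of log2(normalized count + 1), which is set largely by how many cells had reads. A gene entered the comparison when at least 3 cells of the 2 groups were above 0, and was counted as past 2-fold when the difference was at least 1 in either direction. Of the 9 genes, 8 passed that filter. Cntnap4 passed it through GABAergic cells alone, so it could only come out lower. Cntnap4 differed by -11.71, Nrcam by -6.31 (pooled SD between cells 3.99), Cntn1 by -5.54 (SD 4.29), Sptan1 by -1.92 (SD 3.97) and Ank3 by -1.02 (SD 4.35). These 5 were past 2-fold lower, where 64.2% of all 6571 symbols were, and 0 were past 2-fold higher, where 13.3% were. The log2 ratio of the group means of the normalized counts, with 1 added to each mean, gave another split. In this ratio a few high cells weigh most. Ank3 (1.28), Sptbn1 (1.01), Sptan1 (1.36) and Cntn2 (2.95, from cell 4 alone) were past 2-fold higher, where 24.5% of symbols were. Cntnap4 and Nrcam (-1.70) were lower, where 38.9% were. Cntn1 was at -0.17 by that measure, since pyramidal cell 3 was at 10321. Cells did not overlap for 1 of the 8, lower in pyramidal cells, against 1.84% of all symbols, and for 0 in the higher direction, against 0.243%. The median of the 8 was -1.47 beside -2.05 over all symbols.

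The share of these genes that was lower in pyramidal cells was near that of all symbols, and the spread between cells was larger than the difference for Sptan1, Ank3, Nfasc, Sptbn1 and Cntn2. Ank3 differed by 0.86 without pyramidal cells 3 and 4, so its direction rested on those cells. Sptan1 differed by 0.057 without cell 3 alone. With cell 4 left out as well, Sptan1 was lower in pyramidal cells, again within 2-fold. Without cells 3 and 4 Cntnap4 still differed by -11.71 and Cntn1 had no overlap as well. Of the 7 genes that then passed the filter, 4 were past 2-fold lower, where 64.6% of 5995 symbols were, and 1 was higher, where 14.4% were. The 2 without overlap, both lower, stood beside 4.39% of symbols. The mean of the log2 levels over the 9 genes, used here as a score per cell, was 4.35 (SD 1.40) in pyramidal and 7.19 (SD 1.08) in GABAergic cells, a difference of -2.84 with a pooled SD of 1.23, and -3.43 without pyramidal cells 3 and 4. Among cells titled P it was -2.77 (3 against 3) and among cells titled S it was -2.62 (2 against 1); what these opening letters stand for is not stated in the labels.

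GABAergic neurons in purified cultures were next set against those in glia-containing cultures. The purified cultures had been given the antimitotic agents and the glia-containing ones had not. Loss of glia and exposure to these agents therefore cannot be told apart here. By mean log2 levels all 7 genes that could be compared were lower in purified cells, most of all Cntnap4, Nfasc and Ank3. In these cells Ank3 and Cntn2 had no reads and Nfasc and Cntnap4 had reads in cell 2 alone. The differences were -9.46 for Cntnap4 (pooled SD 3.39), -4.15 for Nfasc (SD 4.45), -3.82 for Ank3 (SD 3.14), -2.12 for Sptan1 (SD 3.29), -1.38 for Nrcam (SD 0.93), -1.09 for Cntn1 (SD 1.36) and -1.09 for Sptbn1 (SD 4.51). All 7 that passed the filter were past 2-fold lower, where 64.4% of 6302 symbols were, and 0 were higher, where 11% were. Ank3 passed it through the 3 glia-cultured cells with reads alone, so it could only come out lower. Sptbn4 (0.60, SD 3.48) and Cntn2 (-1.83, SD 2.46) did not pass it. By the ratio of group means Sptan1 and Sptbn1 were not lower: Sptan1 averaged 1122 against 1121 and Sptbn1 605 against 365 (0.73 on the log2 scale), and Cntnap4 was at -2.88. Of the 7, 5 were then past 2-fold lower, where 39.4% of symbols were, and 0 higher, where 17.1% were. Their median by mean logs of -2.12 stood beside -2.13 over all symbols, so as a group they lay where the typical gene lay.

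Overlap between purified and glia-cultured cells was present for all 7 genes, so 0 stood apart in either direction, against 1.51% of symbols lower and 0.159% higher. For Cntnap4 the overlap rested on purified cell 2, and without it the gene had no overlap. Nrcam had none without glia-cultured cell 5. The purified cells also had fewer rows above 0, 2573 to 4065 against 3760 to 8652, and after every cell was thinned to 1817671 reads 2536 to 3804 against 3614 to 8201; the part of this in the lower levels was not tested. The score was 4.48 (SD 1.19) in purified cells, a difference of -2.70 from glia-cultured ones with a pooled SD of 1.13. The difference was -3.57 among cells titled P (1 against 3) and -1.65 among cells titled S (4 against 1). For Ank3 alone the difference was -7.65 among cells titled P and 0 among cells titled S, where no cell had Ank3 reads. The direction of Sptbn1 turned, to 0.40, without purified cell 1 or without cell 4.

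The medium itself is addressed by OCM-treated against purified GABAergic cells. Cntnap4, Cntn2 and Sptbn1 were higher in OCM-treated cells, by 6.18 (pooled SD 5.01), 4.78 (SD 3.10) and 2.16 (SD 3.99). Cntnap4 had reads in 4 OCM-treated cells and 1 purified cell, Cntn2 in 3 and 0, and Sptbn1 in 5 and 3. Cntn2 thus passed the filter through OCM-treated cells alone and could only come out higher. The spectrin partner Sptan1 (0.71, SD 4.77), Nfasc (0.74, SD 3.92), Cntn1 (0.41, SD 1.17), Sptbn4 (0.42, SD 3.70) and Nrcam (-0.53, SD 2.52) stayed within 2-fold. Ank3, with reads in only 2 OCM-treated cells, did not pass the filter. Of the 8 that did, 3 were past 2-fold higher, where 56% of 5143 symbols were, and 0 lower, where 16.4% were. By the ratio of group means 2 were higher, Cntnap4 (1.96) and Cntn2 (7.33), where 28.9% of symbols were. The purified mean of Cntn2 was 0, so its value was set by the 1 added to each mean and is no measured fold. By the same ratio 2 were lower, Sptbn4 (-1.54) and Nfasc (-1.37), where 21.9% of symbols were. Cells overlapped for all 8, so 0 stood apart, against 0.817% of symbols higher and 0.233% lower. The median of the 8 by mean logs was 0.72, beside 1.40 over all symbols.

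The score was 6.41 (SD 1.03) in OCM-treated cells, higher by 1.92 than in purified ones (pooled SD 1.11), and by 1.81 when only cells titled S were compared (5 against 4). OCM-treated cells had 3992 to 6331 rows above 0, and 4 of the 5 had more than every purified cell; the part of this in the score was not tested. Sptbn1 went the other way, to -0.60, when group means rather than mean logs were compared: 398 in OCM-treated against 605 in purified cells, where 2 cells at 0 stood beside 3 at high levels.

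OCM-treated cells were also set against GABAergic cells with glia; this comparison shares its groups with the former ones, so the values are given side by side only. Nfasc differed by -3.41 (pooled SD 4.25), Cntnap4 by -3.28 (SD 3.35), Nrcam by -1.90 (SD 2.44), Sptan1 by -1.40 (SD 3.31) and Ank3 by -1.39 (SD 3.95). Cntn2 (2.94, SD 3.82), Sptbn1 (1.07, SD 2.86) and Sptbn4 (1.03, SD 3.12) were higher in OCM-treated cells, and Cntn1 differed by -0.68 (SD 1.37). All 9 genes passed the filter; 5 were past 2-fold lower, where 44.4% of 6772 symbols were, and 3 higher, where 20.3% were. By the ratio of group means 1 was lower, Nfasc (-2.86), where 32.9% were, and 1 higher, Cntn2 (1.70), where 15.6% were. No gene was without overlap, against 0.517% of symbols lower and 0.177% higher. Every one of the 9 differences of mean logs was smaller than the spread between cells. Cntnap4 had no overlap without OCM-treated cell 5, Sptan1 differed by 0.70 without that cell, Sptbn4 by -0.26 without it, and Sptbn1 by -0.33 without glia-cultured cell 2. The scores differed by -0.78 (pooled SD 1.06), and by 0.16 among cells titled S (5 against 1).

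**Figure D2:**
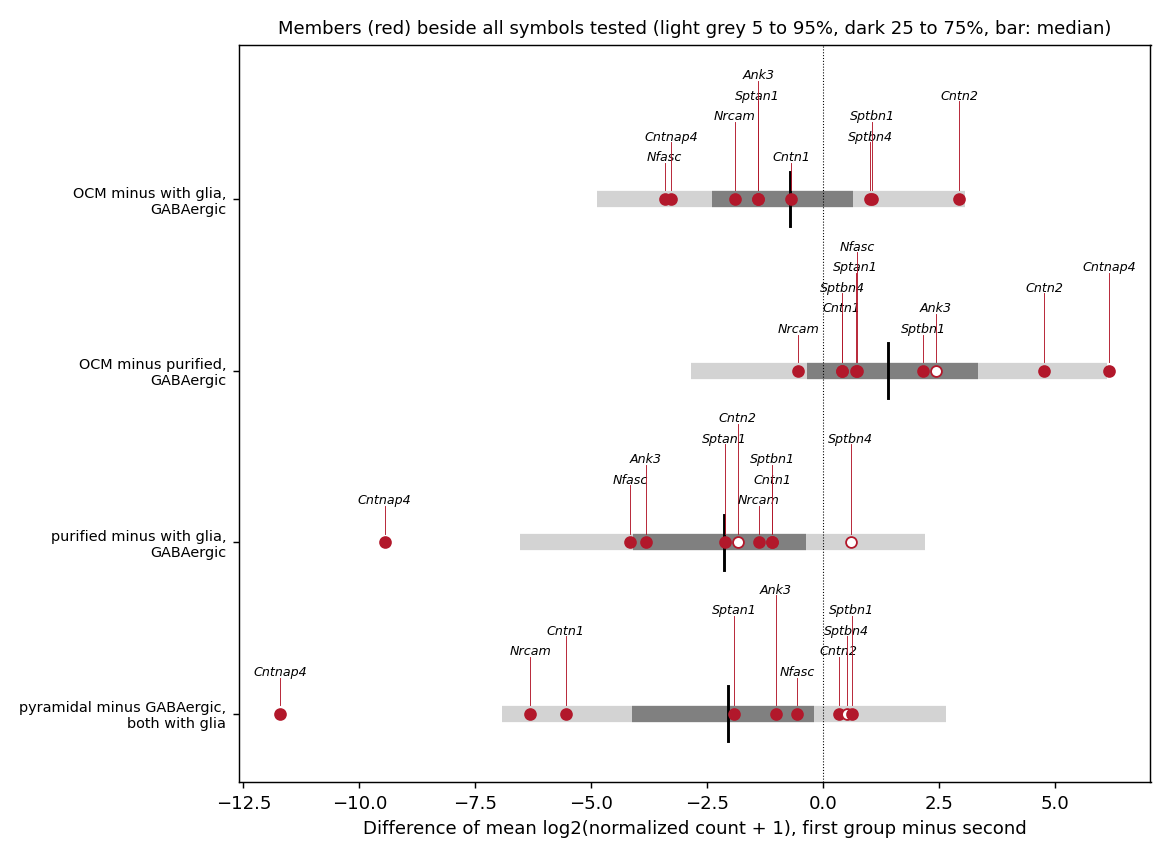
Difference of mean log2(normalized count + 1) of each gene (red points; open where fewer than 3 cells of the 2 groups had reads) in the 4 comparisons, beside all symbols compared (light grey bar 5 to 95%, dark grey 25 to 75%, black line the median). Cntnap4 lies outside the light bar at -11.71 in pyramidal and -9.46 in purified cells, both against glia-cultured GABAergic cells, and just outside it at 6.18 in OCM-treated against purified cells, whereas the other genes lie inside it in all 4 rows.

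All of the 9 genes but Cntnap4 lay between the 5% and 95% points of all symbols in each comparison, as the plot of differences shows. Cntnap4 was below it in pyramidal cells, where the lowest 5% of symbols began at -6.92, and in purified cells, where it began at -6.53. It was also just above the upper bound of 6.14 in OCM-treated against purified cells. These 3 positions of Cntnap4 share the glia-cultured or the purified group with each other.

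Other genes of the initial segment and node came from a list of 54, of which 48 were in the table. In pyramidal cells 4 of the 39 compared were past 2-fold higher and 28 lower, where 13.3% and 64.2% of all symbols were. In purified against glia-cultured cells 1 of 39 was higher and 31 lower, beside 11% and 64.4%. In OCM-treated against purified cells 15 of 27 were higher and 4 lower, beside 56% and 16.4%, so the share that was higher lay at that of all symbols. In OCM-treated against glia-cultured cells 6 of 39 were higher and 22 lower, beside 20.3% and 44.4%. The medians were -3.14, -2.88, 1.39 and -1.18 in that order, beside -2.05, -2.13, 1.40 and -0.72 over all symbols.

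Among the 39 genes, those whose cells did not overlap included Schip1 (higher) and Scn1a (lower) in pyramidal cells, Scn1a and Dlg2 (both lower) in purified against glia-cultured cells and Dlg2 (lower) in OCM-treated against glia-cultured cells. Among the 27 compared between OCM-treated and purified cells they included Tnr (higher). Over all symbols 0.243% were apart higher and 1.84% lower in pyramidal cells, 1.51% lower in purified and 0.517% lower in OCM-treated against glia-cultured cells, and 0.817% higher in OCM-treated against purified cells. Scn1a, the channel typical of fast-spiking interneurons, had 2266, 1882, 1385, 1194, 1157 and 1983 in GABAergic cells with glia, and every purified cell (0, 0, 0, 10.3 and 1.87) and every pyramidal cell (170 and 4 cells at 0) lay below them. OCM-treated cells had 0, 1292, 4.28, 312 and 2388, so they spanned both.

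Among the matrix and potassium channel genes, Tnr, Kcna1 and Hapln4 differed between groups in how many cells had reads, while Kcna2 had reads in 2 purified and 2 OCM-treated cells and Hapln2 and Gldn in none of the 21. Tnr, the node and perineuronal matrix protein tenascin-R, had reads in all 5 OCM-treated cells (486, 74.8, 3114, 32.2 and 2427), all above the purified cells, of which 1 had 6.78 and the others 0; 3 of 6 glia-cultured cells had reads, up to 2641. Kcna1, a juxtaparanodal potassium channel that contactin-2 helps to gather, had reads in 4 OCM-treated cells (600, 1034, 294 and 1746), in 4 glia-cultured cells and in no purified cell. Hapln4, a link protein of the perinodal matrix, had reads in 4 glia-cultured cells, up to 9626, and in no purified or OCM-treated cell. Omg, a glycoprotein of myelin and neurons, averaged 1047 (SD 1674) in pyramidal and 4211 (SD 2264) in glia-cultured GABAergic cells, a difference of -7.08 on the log2 scale. Epb41l3, a linker under the paranodal membrane, differed by -7.79, with 6695 in pyramidal cell 1 and at most 5.90 in the other pyramidal cells, against 587 to 3623 in glia-cultured GABAergic cells.

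Dlg2, a scaffold found with juxtaparanodal potassium channels and at synapses, had 1089, 1178, 316, 141, 127 and 191 in glia-cultured GABAergic cells, above every purified cell (41.0 in cell 5 and 0 in the rest) and every OCM-treated cell (1.02 in cell 2 and 0 in the rest). Schip1, which binds ankyrin-G at the initial segment, had 5514, 2790, 3550, 1811 and 1497 in pyramidal cells, all above the highest glia-cultured GABAergic cell, at 1314. Trim46, which bundles microtubules in the initial segment, had reads in 5 of 6 glia-cultured, 1 of 5 purified and 1 of 5 OCM-treated GABAergic cells. The overlap of cells in this list can be read in the plot of 6 of its genes.

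**Figure D3:**
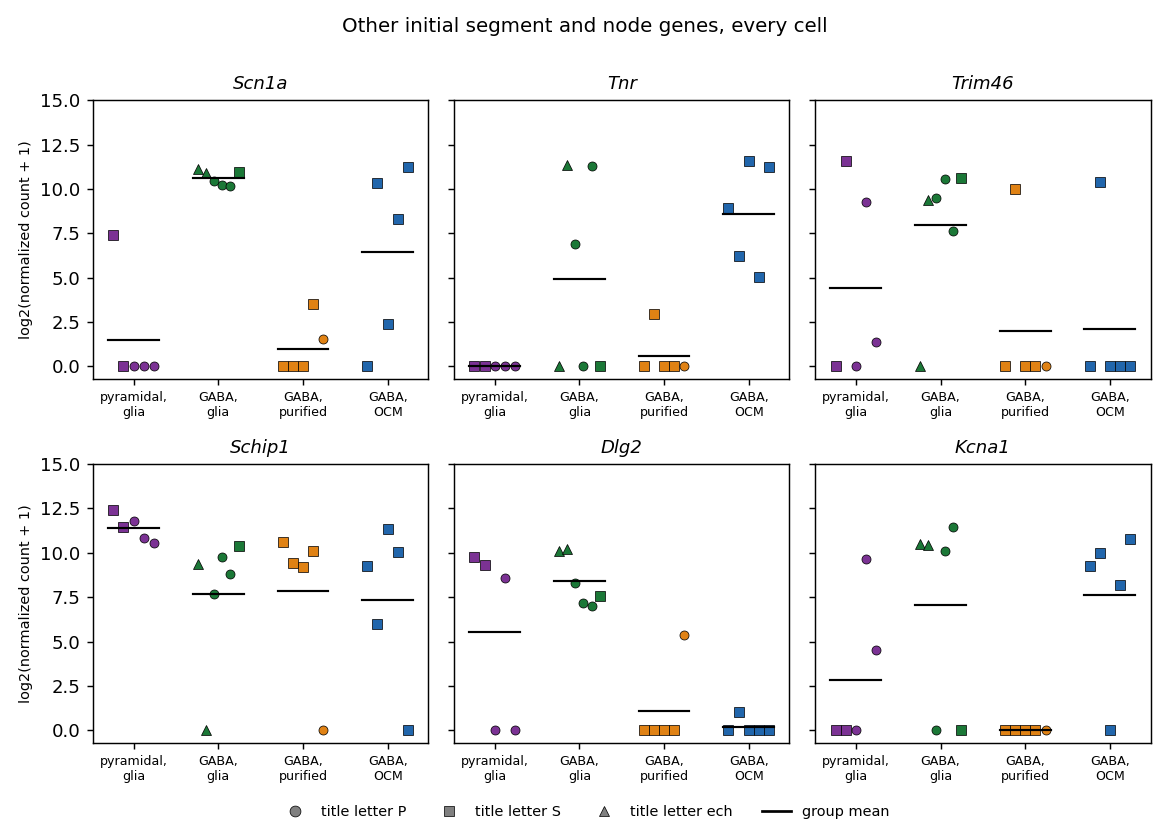
Normalized count of 6 other genes of the initial segment and node in every cell, as log2 of the value plus 1, in the 4 groups; each point is 1 cell, its shape gives the opening letters of the sample title and the black line is the group mean. Tnr is above 0 in all 5 OCM-treated cells and in 1 of 5 purified cells, while Dlg2 is above 0 in 1 cell of each of these groups.

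How many of the 9 genes a cell showed went with how many genes it showed in all. Pyramidal cells had 3 to 6 of the 9 above 0, GABAergic cells with glia 5 to 8, purified cells 3 to 6 and OCM-treated cells 5 to 8. Counted as pairs of gene and cell, 48.9%, 72.2%, 44.4% and 71.1% were above 0 in that order, against 35.5%, 58.1%, 34.9% and 50.1% over 7927 symbols that were above 0 in at least 3 cells. The 9 genes were thus above 0 more often than these symbols in each group, and the order of the groups was the same for both. Across the 21 cells the score had a Pearson r of 0.81 and a Spearman rho of 0.84 with the number of rows above 0, and 0.64 and 0.71 with the log2 of reads. Within the 16 GABAergic cells r with rows above 0 was 0.78. The cells share amplification, and these values are a description with no test.

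**Figure D4:**
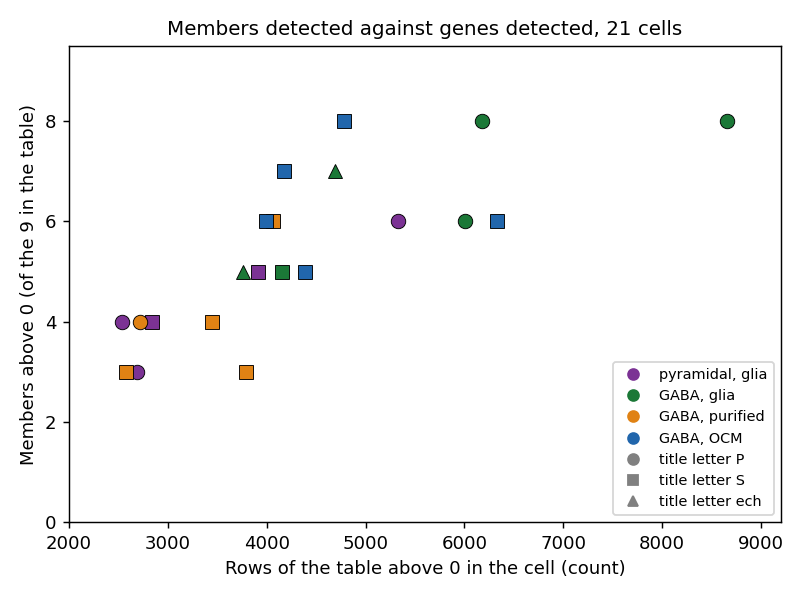
Number of the 9 genes above 0 in each of the 21 cells (vertical axis) against the number of rows of the table above 0 in that cell (horizontal axis); colour gives the group and shape the opening letters of the sample title. Cells with 3 or 4 of the genes have at most 3792 rows above 0, and the cells with 8 have at least 4778.

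Among the genes themselves, all 11 cells with Cntnap4 reads had Cntn1 reads, and 8 further cells had Cntn1 alone. Cntn1 was above 0 in all 16 GABAergic cells and Cntnap4 in no pyramidal cell, so this follows from how widely Cntn1 was found. The same 11 cells also had Nrcam reads. Nfasc and Sptbn4 were both present in 4 of the 5 cells with Sptbn4. Ank3 and Nfasc, whose proteins bind each other, were both present in 2 cells, of 7 with Ank3 and 10 with Nfasc. Ank3 and Sptbn4 were both present in 1 cell. The log2 ratio of Nfasc to Nrcam, each taken as the normalized count plus 1, could be read in the cells with both genes. It was -4.10, -2.36, -3.40 and -2.13 in 4 GABAergic cells with glia, -1.27 in 1 purified cell and -3.85 and -7.19 in 2 OCM-treated cells. In pyramidal cells it was 8.41 in cell 1, where Nrcam had 2 reads, and -3.92 in cell 4. Sptbn4 and Sptbn1 were both present in 1 glia-cultured cell (-2.71), 1 purified cell (-0.75), 2 OCM-treated cells (-2.04 and -1.14) and no pyramidal cell. Cntn1 and Cntn2 were both present in 2 glia-cultured cells (6.83 and 2.75), 3 OCM-treated cells (2.16, -0.049 and 3.96) and no purified cell. Both were also present in pyramidal cell 4 (-0.37). So few cells had both genes of a pair that the groups are not compared by these ratios.

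The symbols whose levels were most like the score over 21 cells, of 1375 above 0 in at least 16 of them, were the joint row Cntd1 // Vps25 // Wnk4 (r 0.73), Rnf6 (0.72), Rdx (0.70), Acp1 (0.69) and Immt (0.68). Over the 16 GABAergic cells, of 1815 symbols above 0 in at least 12, they were Wls (0.82), Flywch1 (0.81), Pnmal2 (0.79), Golph3 (0.79) and Lpgat1 (0.78). No symbol was on both lists, and r with the number of rows above 0 was of the same size.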

How the data were processed

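Per the labels' protocols, RNA aspirated from patched neurons was amplified with SMART-Seq v4 and sequenced as paired Nextera XT libraries. The submitters' processing notes name DESeq2, SAMtools, Picard, FastQC, STAR 2.4.0 and the build rn6. The sources used here do not give the read counter, the annotation or the strand setting.

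The authors deposited a never-negative signal per gene, named as DESeq2-normalized. Of 34976 rows, 18376 have no symbol; each of 16245 symbols kept its row with the highest mean (1 of 3 for Cntn1). In every cell 100% of values were whole multiples of 1 step within 0.05, which gave back reads and depth. A count test was not run, since each group is 1 sample. The 9 genes and the lists were chosen with earlier results of these data known.

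Differences are of mean log2(value + 1) between groups, over symbols above 0 in at least 3 of their cells; 2-fold is a difference of 1. For a group at 0, folds were computed against 3 reads summed over its cells. All members are named; other pathway genes are named where cells do not overlap or among the 3 largest differences per comparison, and the 5 symbols most like the score. The values of 1 gene that this rule names are not reported here. Alternatives were pseudocounts, scalings, thinning, medians, ratios of means, summed rows, other filters, each cell left out, cells of 1 title letter, and pyramidal cells 3 and 4 left out. Scripts were tested on simulated data. Promoter windows and names came from RefSeq tables of GRCr8. Analyses ran under Python 3.11.15 with pandas 2.3.3, numpy 2.4.6 and scipy 1.17.1, and figures were drawn with matplotlib 3.10.9.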

Additional observations from a re-analysis of the deposited data

Results flagged for a closer look

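Some single cells lay far from the rest of their group, by the gap to the nearest cell against the range of the group. Of 37 groups tested 12 had such a cell. Chance gives about 1 in 20 for normally distributed values, which these are not: in 6 of the 12 every other cell was at 0, and the measure is then at its maximum by construction, so the count is not read against chance. On the scale of log2(normalized count + 1), purified cell 2 was far above the other purified cells for Sptbn4 (9.05), Nfasc (9.31) and Cntnap4 (11.26), each at 0 in the other 4. Pyramidal cell 4 was far above for Sptbn4 (8.63), Cntn2 (10.89) and the score over the 9 genes (6.81), and far below for Sptbn1 (0). It is 1 of the 2 pyramidal cells with Mbp reads and had 22669537 reads, the most of the pyramidal cells; the part of either was not tested. Among GABAergic cells with glia, cell 1 was far above for Sptbn4 (7.24), cell 5 far above for Cntn2 (8.15) and cell 2 far below for Sptbn1 (0). Among OCM-treated cells, cell 5 was far below for Sptan1 (0) and cell 4 for Nrcam (4.37).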

How the results depend on the processing

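No paired analysis was possible because the replicate numbers only name cells and the results come from no test. The cause of the changes below was not tested. The score difference moved by more than the pooled SD between cells in 1 alternative, where pyramidal minus GABAergic cells was -0.59 as a ratio of group means. OCM-treated minus glia-cultured cells, at -0.78 smaller than its SD, turned to 0.16 among cells titled S. With each cell left out the score difference ran from -3.46 to -2.54 for pyramidal minus GABAergic cells and from -3.21 to -2.40 for purified minus glia-cultured cells. It ran from 1.68 to 2.42 for OCM-treated minus purified and from -1.02 to -0.38 for OCM-treated minus glia-cultured cells.

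Counts past 2-fold follow as higher and lower of those tested, and percentages are shares of all symbols. Among symbols above 0 in at least 16 cells, pyramidal cells had 0 and 3 of 4 (9.86% and 62.4%). In that filter purified against glia-cultured cells had 0 and 4 of 4 (11.3% and 49%). OCM-treated against purified cells had 1 and 0 of 4 there (43% and 12%). With a pseudocount of 0.1 they had 5 and 0 of 8 (59.8% and 17.7%), as with one upper quartile (61.7% and 13.9%). With each cell left out the count was 2 to 5 (4 and 1 of 8 without OCM-treated cell 2). OCM-treated against glia-cultured cells had 1 and 3 of 9 with a pseudocount of 10 (15.6% and 37%) or by medians (16% and 38.9%). By ratios of means they had 1 and 1, and in that filter 1 and 2 of 4 (15.2% and 25.5%). With each cell left out the count was 5 to 7 (1 and 4 of 8 without OCM-treated cell 5). Counts by title letter are left out where a group held 1 cell. Pyramidal against GABAergic cells titled S (2 against 1) differed by 2.48 for Sptan1 and -11.34 for Nrcam. Counts without overlap in pyramidal cells were 0 in that filter, which leaves out Cntnap4, 3 among cells titled S (where 36.8% of symbols were apart higher and 27% lower) and 2 without cells 3 and 4; in purified against glia-cultured cells 1 with one total or thinned (Cntnap4), 5 titled P (21.9% and 59.4% of symbols), 2 titled S (10% and 20.7%) and 0 to 1 with each cell left out; in OCM-treated against glia-cultured cells 3 titled S (9.37% and 24.7%) and 0 to 1 with each cell left out.

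Of 738 single differences under an alternative, 62 changed sign: 38 of 224 for differences within 2-fold, whose sign is not read, and 24 of 514 for those past 2-fold, given here. In pyramidal cells Sptan1 was 0.72 by medians, 1.36 by ratios of means, 2.48 titled S and -3.17 to 0.057 with each cell left out (0.057 without cell 3), and Ank3 1.28 by ratios, 1.84 titled S and 0.86 without cells 3 and 4. In purified against glia-cultured cells Sptbn1 was 1.17 by medians, 0.73 by ratios, 0.95 titled P and -2.50 to 0.40 with each cell left out (0.40 without purified cell 1 or 4), Sptan1 0.00107 by ratios, Cntn1 0.86 titled P and Nfasc 2.33 titled S. In OCM-treated against purified cells Sptbn1 was -0.89 by medians and -0.60 by ratios. In OCM-treated against glia-cultured cells Sptan1 was 0.27 by medians, 0.30 by ratios and -2.18 to 0.70 with each cell left out (0.70 without OCM-treated cell 5), Sptbn4 -0.26 (without that cell) to 2.23, Sptbn1 -0.33 (without glia-cultured cell 2) to 1.66, and, titled S, Ank3 2.44 and Nfasc 2.60. The limits on summed reads of Ank3 and Cntn2 without single cells, given beside them, were added after seeing the data. Scores have no value under other symbol filters, and the planned ratio of Ank3 to Ank2 was not run.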
